A study of Mus musculus with 2031 samples.

Results

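AST4 and AST1, astrocyte subtypes that the study defined in the adult mouse hippocampus, were compared here within the same cell suspensions. AST1 was the most frequent hippocampal subtype, and AST4 the subtype for which the study named progenitor genes such as Frzb and Emx1. The 2 hippocampal suspensions, named 1H and 2H, came from untreated C57BL/6J mice at postnatal day 56, and each was prepared from several littermates of its own litter. Cells were sorted singly as ACSA-2 positive, O1 negative and 7-AAD negative, where ACSA-2 is an antibody against ATP1B2, a sodium pump subunit of astrocytes, and O1 marks oligodendrocytes. Members were taken by the subtype listed for each cell, and gave 634 of the 2030 cells of the series. AST1 held 545 cells, in nearly equal numbers from each suspension, and AST4 held 89, of which 41 were from 1H and 48 from 2H. AST4 cells were found on all 16 hippocampal plates, at 2 to 12 per plate.

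Neural stem cells of the adult dentate gyrus are radial astrocytes that line the subgranular zone, carry GFAP, and give rise to new granule neurons through dividing intermediate progenitors. Mature astrocytes share GFAP with them, but are known for taking up glutamate and potassium, for gap junctions and for supplying lipids and lactate. A comparison of AST4 with AST1 asks which of these programmes differ between the subtypes inside a single suspension, so that litter, dissociation and sort are shared.

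Raw counts were summed per subtype and suspension, which gave 4 sums of 421590638 and 387918253 counts for AST1 (1H, 2H) and 62026937 and 69499100 for AST4. Levels below are CPM (counts scaled to a common total) of a sum after TMM scaling, given as AST1 in 1H and 2H and then AST4 in 1H and 2H, and are not corrected for gene length, so that levels of different genes are not compared. The replicate is the suspension (n = 2 pairs), so an exact sign-flip test over them cannot give a p below 0.5. The subtypes had been clustered by the study from these same counts, and a small p here says that a difference was alike in both suspensions, not that the subtypes are distinct types.

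In the paired edgeR fit of all 16094 genes past the low-count filter, 0 genes (0.0%) passed an adjusted p of 0.05. An unadjusted p under 0.05 was reached by 1449 genes (9.0%), 475 higher (2.95%) and 974 lower (6.05%) in AST4, and DESeq2 on the same sums called 1907. The sums varied widely among low genes, with a common biological coefficient of variation of 1.08. When only the 3443 genes read in over 25% of AST1 cells or of AST4 cells were kept, the coefficient was 0.303 and 552 genes (16%) passed, 5.95% of those tested being higher and 10.1% lower in AST4. At an unadjusted p under 0.05 these were 568 (16.5%) and 701 (20.4%). All log2 folds and adjusted p-values below are from this restricted fit unless stated, whereas CPM levels carry the scaling of the fit on all genes. The restricted scaling raises log2 folds by 0.0729 (median), so that a ratio of the printed levels lies slightly below the log2 fold beside it. The 552 genes had 1 direction in both suspensions, which a paired call nearly requires, and so did 75.39% of the genes of this fit with counts in all 4 sums. The filter bears on the calls, since 1127 genes entered through their share of AST4 cells alone, and 0 of these were called lower. A filter on the mean of both shares tested 435 of the 552 calls, all 435 of which passed, and called 10.8% of its 2718 genes higher and 14.6% lower. Without 1H or without 2H each subtype kept 1 hippocampal sum, and the spread came from cortical sums alone, so no calls are counted. All 552 calls kept their direction there, which the same direction in both suspensions implies. With the spread shared by all hippocampal subtype sums 4.73% of the genes passed as lower and 14 genes as higher. These 14 were Fos, Tuba1a, Sparc, Frzb, Btg2, Dusp1, Fabp7, Notch2, Rpl4, Dbi, Cd9, Pcx and the gene models Gm10282 and Gm3756. Without the pairing, 840 passed in the restricted fit and 89 in the fit on all genes. Over the alternative fits, the highest adjusted p of each of the 76 called genes named by rule lay between 0.282 and 1.0.

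The balance of higher and lower calls moved with the scaling. TMM placed the median gene of the restricted fit at a log2 fold of -0.0029, and library totals alone placed it at 0.42, where 635 genes (18.44%) were higher and 7.23% lower. The 50 most abundant genes of AST1 took 31.07% and 31.82% of its counts but 22.18% and 22.02% of those of AST4. Of these 50 genes 37 were called lower, beside 10.1% of all genes tested, and picking genes by their level in AST1 favours such calls. With upper-quartile factors 9.09% were higher and 9.50% lower.

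**Figure D1:**
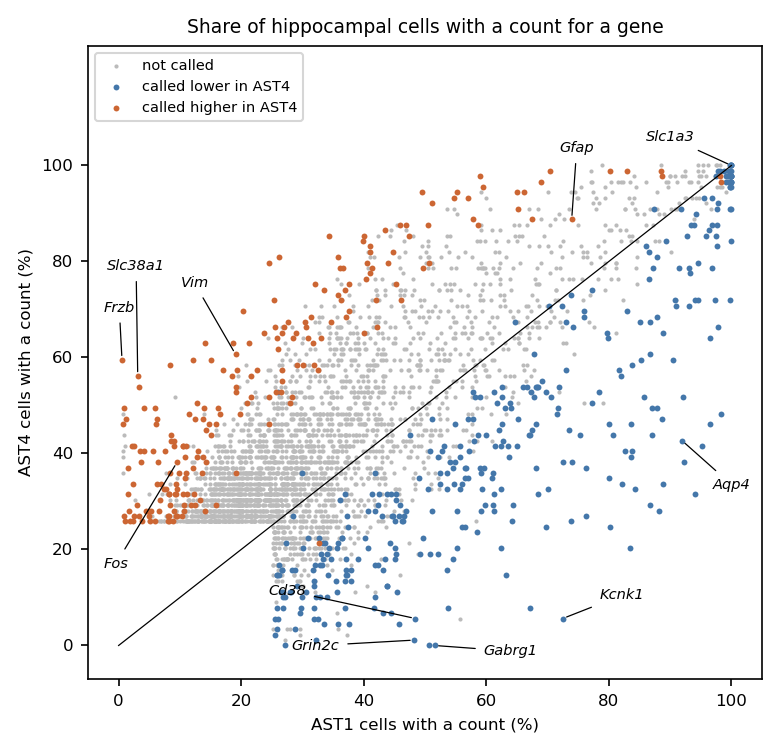
Percent of AST1 cells (x axis, 545 cells) and of AST4 cells (y axis, 89 cells) with a count, each point a gene of the restricted fit, in orange where called higher, blue where called lower and grey where not called from the summed counts. The line marks equal shares. Frzb sat at 0.55% of AST1 and 59.6% of AST4 cells, Kcnk1 at 72.5% and 5.62%, and Slc1a3 at 100% of both.

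The genes with the largest increase in AST4 had low levels in AST1. Frzb, a secreted antagonist of Wnt ligands (chromosome 2, 80411970 to 80447625, minus strand, GRCm38), was at 6.40 and 4.40 CPM in the AST1 sums and at 529 and 411 in the AST4 sums. The groups were far apart, with a log2 fold of 6.53 ± 0.26 (SE; adjusted p = 0.00362). A count for Frzb was found in 3 of 545 AST1 cells and in 53 of 89 AST4 cells. It was higher in the AST4 cells of 15 of the 16 plates, and lower on 0.

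Lpar1, a receptor for lysophosphatidic acid (chromosome 4, 58435255 to 58553898, minus strand), had 7 and 0 counts in the AST1 sums against 13388 and 17441 in the AST4 sums, or 190 and 218.8 CPM. With so few counts in AST1 its fitted fold has no reliable size (adjusted p = 0.00768). Islr, which encodes a secreted leucine-rich repeat protein, was at 6.64 and 2.16 CPM in AST1 and at 303.2 and 335.5 in AST4, a log2 fold of 6.47 ± 0.63 (adjusted p = 0.0104), and was higher on 16 of 16 plates. Sfrp1, like Frzb a soluble Wnt antagonist, was at 2.37 and 4.48 CPM against 75.5 and 76.0 (log2 fold 4.61 ± 0.43, adjusted p = 0.00983). Lpar1 and Sfrp1 were among the calls that the filter on the mean of both shares did not test. Not every AST4 cell held these genes, since Sfrp1 counts were found in 28 of 89 AST4 cells and Lpar1 counts in 41.

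Slc38a1, a glutamine transporter and also among the 12 genes with the largest increase, was at 12.4 and 19.3 CPM in AST1 and at 261.5 and 314.6 in AST4 (log2 fold 4.28, adjusted p = 0.00551). Mfap2, a microfibril protein, Calcrl, the receptor of adrenomedullin and CGRP, and Cyp1b1, a cytochrome P450, had log2 folds of 4.11, 4.51 and 4.59. Tmem132b and Tmem59l, both membrane proteins, had 4.40 and 4.55. Tmem59l was uneven between the suspensions, at 319.4 CPM in AST4 of 1H and 120.5 in 2H, yet neither value came near the 15.98 and 4.85 of AST1. All 12 of these leading genes entered the restricted fit through AST4 alone, so their calls rest on a filter that favours such genes, and Calcrl, Cyp1b1, Mfap2, Tmem59l and Fos were not tested with the mean of both shares.

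**Figure D2:**
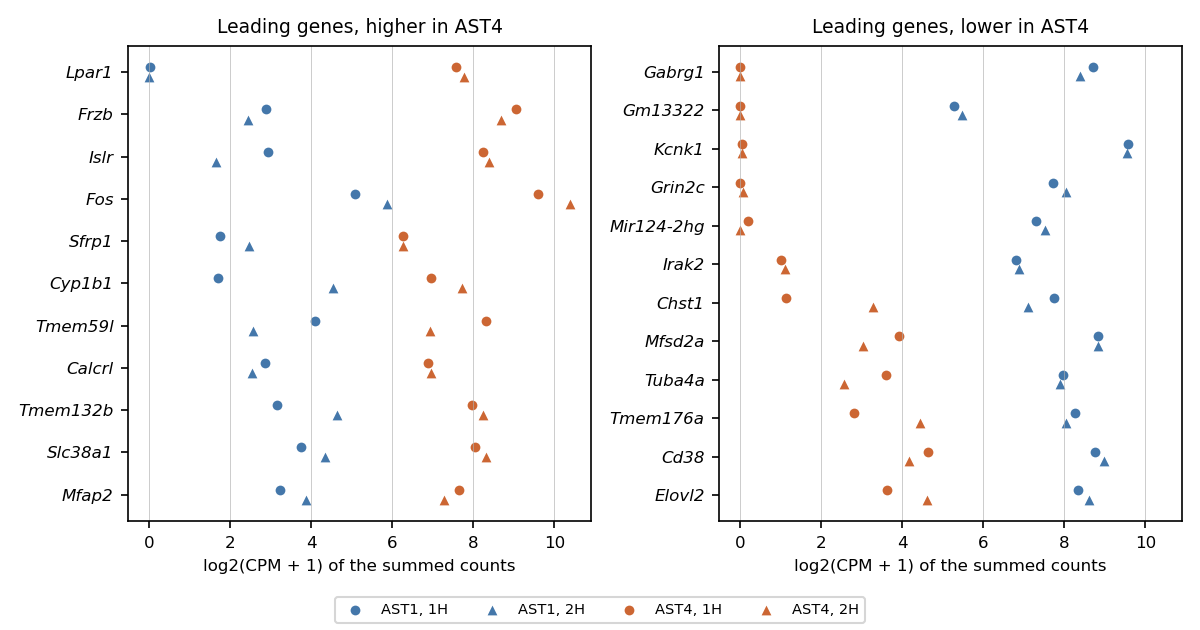
Level of 11 of the 12 genes of largest increase and of the 12 of largest decrease, as log2(CPM + 1) on the x axis, in the sums of AST1 (blue) and AST4 (orange) of suspensions 1H (circles) and 2H (triangles). For all 23 plotted genes the AST4 points lay on 1 side of the AST1 points in both suspensions, which the rule that picked them required.

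Of 32 listed genes known from adult hippocampal stem cells, 20 were in the restricted fit, where 12 were called higher and 0 lower and 8 did not pass, beside 5.95% of all genes of that fit called higher. The median log2 fold of the 20 was 1.94 against -0.0029 over all genes. Of the 20, 10 had entered through AST4 alone and held 9 of the 12 calls, so the count is in part fixed by the filter. With the mean of both shares as filter 13 of the listed genes were tested and 6 called higher (46.2%), beside 10.8% of all genes tested with that filter. The list was chosen with earlier results of these data known. In the fit on all genes 30 of its genes were tested and 0 passed. There 14 were higher at an unadjusted p under 0.05, beside 2.95% of all genes of that fit. Btg2, also an immediate early gene, and Hmgn2, also a chromatin protein, are among the 12. Emx1, a homeobox factor of the dorsal forebrain, was at 5.61 and 12.1 CPM against 116.3 and 111.3 (log2 fold 3.86, adjusted p = 0.0164).

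Fabp7, the fatty acid carrier of radial glia, had a log2 fold of 1.80 (adjusted p = 0.019), Sox1 one of 2.35, and Stmn1, a regulator of microtubules, one of 3.32. Not all listed genes followed. Sox2 had a log2 fold of -0.70 (adjusted p = 0.193), Egfr -1.75 (adjusted p = 0.166), Pax6 0.24 and Nr2e1 0.38, and none of the 4 passed. Hopx, a marker of quiescent stem cells, was at 48.97 and 52.1 CPM in AST1 and at 103.2 and 86.9 in AST4, which did not pass (log2 fold 0.98, adjusted p = 0.113). Its counts were nevertheless in 50.1% of AST1 and 82.02% of AST4 cells, and in 44.04% and 77.53% after every cell had been thinned to 50000 counts. Nes, the intermediate filament nestin of progenitors, lay below the share needed for the restricted fit. It had 0 counts in 545 AST1 cells, which allows a share of up to 0.55% (Wilson upper limit 0.7%) if cells are taken as independent. Counts were found in 9 of 89 AST4 cells. With AST1 set to a floor of 3 counts over both sums together, the summed counts were 5582-fold higher in AST4. Counts are reads, of which a single cell can hold many, so this fold is no lower bound.

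**Figure D3:**
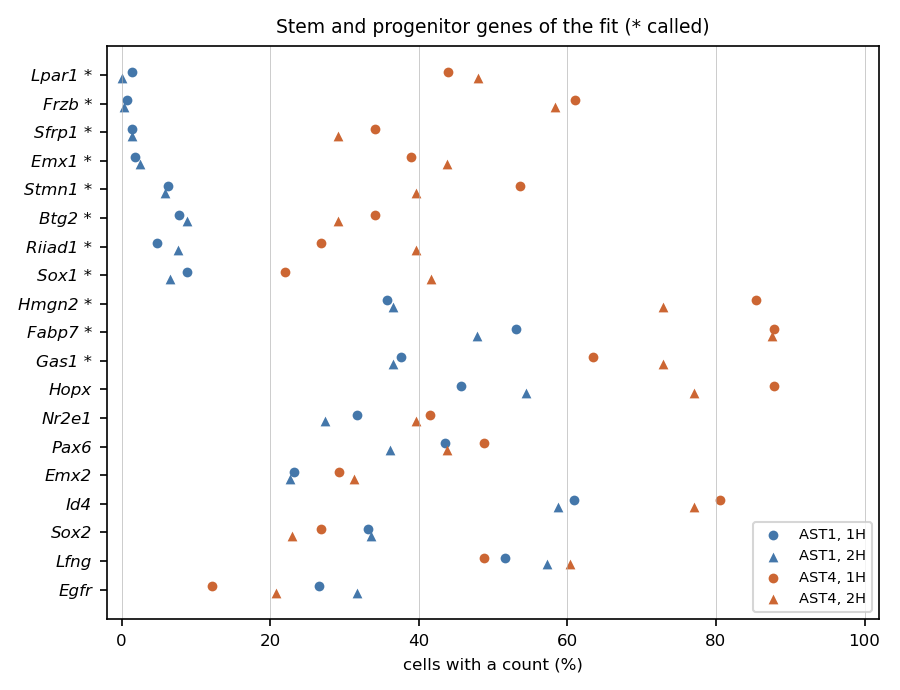
Percent of cells with a count for 19 of the 20 stem and progenitor genes of the restricted fit, in AST1 (blue) and AST4 (orange) of 1H (circles) and 2H (triangles), ordered by fold. Asterisks mark the 11 plotted genes called from summed counts. Both AST4 points lay above both AST1 points for Frzb, Lpar1, Emx1 and also for Hopx, which was not called.

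Several stem genes were read in the same AST4 cells. Frzb and Emx1 were read together in 23 of 89 AST4 cells (11 of 41 in 1H, 12 of 48 in 2H) and in 1 of 545 AST1 cells. At least 3 of the 5 genes Frzb, Lpar1, Emx1, Sfrp1 and Islr were read in 38 AST4 cells (42.7%) and in 1 AST1 cell. In AST4 these were 16 of 41 cells in 1H and 22 of 48 in 2H. The Wilson 95% interval of 32.9 to 53.1 takes cells as independent, whereas the replicate is the suspension. None of these 5 was read in 6 AST4 cells and in 517 AST1 cells. The 5 genes were picked after their values had been seen, so the counts describe how they overlap and carry no test. No overlap in this paragraph was set against that given by the shares of the single genes. The counts thus do not show that the genes go together within AST4. Gfap, the intermediate filament of astrocytes and radial stem cells, was read in 79 of 89 AST4 cells, 47 of which also held Frzb. Its level was 1867 and 1778 CPM in AST4 against 1338 and 1218 in AST1 (log2 fold 0.59 ± 0.10).

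A 30-base stretch of the promoters of Frzb, Islr and Fos is shown because each is among the leading genes and holds the letters CAGCTG (capitals), an E-box of the kind that basic helix-loop-helix factors are known to bind. The sequences are from RefSeq promoters on GRCm38.p6, read 5′ to 3′ on the strand of the gene.
Frzb: ggtgggaaggcgCAGCTGcgagccaaggcg
Islr: ggtttatttaggCAGCTGcctgggatagtt
Fos: ctataaaggcgcCAGCTGaggcgcctacta
They lie at chr2:80447396-80447425 (minus strand), chr9:58158734-58158763 (minus strand) and chr12:85473856-85473885 (plus strand), with the motif starting 17 and 22 bases before the RefSeq transcription start for Frzb and Fos, and farther upstream for Islr. For Frzb and Islr the Gencode gene spans begin upstream of these windows, so that the windows lie inside them. CAGCTG, which reads the same on both strands, was present in 18.5% of the promoters found for genes called higher, in 17% of those found for genes called lower, and in 16.1% of all 27025 promoters of the table. Among all promoters of genes in the restricted fit it was 13.1%, and a match names no bound site.

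Few cell cycle genes were read in enough cells to be tested. Of 5 tested cyclins, kinases and inhibitors of G1, 1 was called higher and 4 did not pass, beside 5.95% of all genes called higher. That call, Ccnd2, had entered through AST4 alone. Ccnd2, the D-type cyclin of neural progenitors, was at 50.8 and 56.8 CPM in AST1 and at 380.5 in AST4 of 1H (log2 fold 2.52, adjusted p = 0.0191). Its log2 ratio of AST4 to AST1 was 2.90 in 1H and 2.00 in 2H, and its counts were in 48 of 89 AST4 cells. Cdk4, its partner kinase, was at 118.9 and 113.5 CPM against 345.3 and 203.97, and lay just outside the threshold (log2 fold 1.26 ± 0.28, edgeR adjusted p = 0.0516). Its call turned with the setting of the restricted fit. It passed with the mean of both shares as filter (adjusted p = 0.0234), upper-quartile factors (0.0359), library totals (0.0185), no pairing (0.0342), thinning (7.5e-05) and DESeq2 (0.0026). It did not pass with RLE factors (0.0512), the shared spread (0.176), without the cells holding Fos (0.139) or without 2 cells with mitotic genes (0.127). Its log2 fold was 0.92 without 1H and 1.57 without 2H. Of the 42 S phase genes listed, 2 were read in enough cells to be tested, and Rfc2, a subunit of the clamp loader of DNA replication, was called higher, beside 5.95% of all genes. Both had entered through AST4 alone, and neither was tested with the mean of both shares. Of 52 genes of the G2 and M phases, 3 were tested and 0 called. In the fit on all genes the median log2 fold of 38 such genes was 4.16, with 12 of them higher at an unadjusted p under 0.05, beside a median of -0.349 and a share of 2.95% over all genes of that fit. Of the listed genes, 16 had 0 counts in AST1 but counts in AST4. Such a gene can pass the low-count filter only through AST4, which fixes its direction. The median and the 12 are thus in part set by the filter, and are no support for a difference.

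Of the 7 mitotic genes Mki67, Cdk1, Birc5, Tpx2, Aurkb, Cdca3 and Cdca8, at least 1 was read in 3 AST4 cells and in 1 AST1 cell, and at least 4 were read in 2 AST4 cells, 1 in each suspension, and in 0 AST1 cells. Both of these last AST4 cells held Ccnd2 and Mcm5, a replication licensing factor, and 1 of them held Frzb. With them left out, the G2 and M list fell from 2389 to 1494 CPM without TMM scaling in 1H and from 2384 to 1621 in 2H, and so stayed above the 975 and 1018 of AST1. The gap is wider on this scale than with TMM. With TMM and the 2 cells kept, the list was at 1113 and 1175 CPM in AST1 and 2099 and 2079 in AST4. Of 16 listed G2 and M genes with 0 counts in AST1 but counts in AST4, 14 were at 0 in the remaining AST4 cells. The share of AST4 cells with Mki67 was 2.25% (Wilson 95% interval 0.618 to 7.83 if cells are taken as independent). The stem list kept its level without the 2 cells, at 4731 CPM without TMM scaling in 1H and 4726 in 2H against 1447 and 1438 in AST1.

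Most listed genes of young neurons were read in too few cells to be tested. Neurod1, a factor of neuroblasts, was read in 1 of 89 AST4 cells and in 0 of 545 AST1 cells. Dcx, the microtubule protein of migrating neuroblasts, and Eomes, the factor of intermediate progenitors, had 0 counts in both subtypes. This allows a share of up to 3.37% of AST4 cells (Wilson upper limit 4.14%) if cells are taken as independent. Of 18 listed genes, 3 were tested, and Prox1, the granule neuron factor, and Nrep were called higher (log2 folds 1.85 and 1.59), beside 5.95% of all genes. Both entered the fit through AST4 alone and were not tested with the mean of both shares. Prox1 was higher in AST4 on 9 plates and lower on 7.

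The cytoskeleton list had 11 of 16 tested genes called higher and 2 lower, beside 5.95% and 10.1% of all genes tested, with a median log2 fold of 1.57. Of the 11, 5 entered through AST4 alone. Vim, vimentin, was at 100 and 92.5 CPM in AST1 and at 355.8 and 366.6 in AST4 (log2 fold 1.98 ± 0.22, adjusted p = 0.0121), and was higher on 16 of 16 plates. Tuba1a, the main tubulin of growing neurites, was at 756 and 688 CPM against 1702 and 1746 (log2 fold 1.33 ± 0.12, adjusted p = 0.00924). Marcksl1, a membrane-to-actin linker, had a log2 fold of 3.85, and Tubb5 one of 1.95. Tubb2a went the other way, at -1.34. Aqp4, the other lower gene of the list, is a water channel and no cytoskeletal protein, and Fabp7 is a fatty acid carrier.

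Of 20 tested chromatin proteins, Hmgn2, Hmgn1 and H3f3b were called higher (log2 folds 2.09, 1.33 and 1.04) and Hmgn3 lower (-0.98), and 16 did not pass, beside 5.95% of all genes tested called higher and 10.1% lower. With the mean of both shares as filter 6 of 18 were higher (33.3%), beside 10.8% of all genes. HMGN proteins bind nucleosomes and loosen chromatin, and H3f3b encodes the replacement histone H3.3. The Notch, Wnt and BMP lists that follow stand beside the same 5.95% and 10.1%. Notch2 was at 325.2 and 393 CPM in AST1 and at 841 and 811 in AST4 (log2 fold 1.28 ± 0.15, adjusted p = 0.0147), the single call among 10 tested Notch genes, while Hes5 and Hes1, Notch targets, had log2 folds of 0.35 and -0.75 and did not pass. Of 10 tested Wnt genes Frzb and Sfrp1 were higher, and Lgr4, a receptor of R-spondins, was lower at -2.19, of which Sfrp1 was not tested with the mean of both shares. The BMP-induced Id2 and Id3, inhibitors of differentiation, were lower at -2.21 and -1.80, as was the receptor Bmpr1b at -1.29 (3 of 5 tested genes), whereas Id4 and Id1 were at 0.10 and -0.04 without a call.

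Immediate early genes had a median log2 fold of 2.86, the highest among lists with 3 or more tested genes, and 4 of 5 tested genes were called higher, of 30 listed, beside 5.95% of all genes tested. All 4 entered through AST4 alone. Fos was at 32.9 and 57.7 CPM in AST1 and at 775 and 1334 in AST4 (log2 fold 4.62 ± 0.15, adjusted p = 0.00358). Its counts were in 52 of 545 AST1 cells (9.54%) and in 34 of 89 AST4 cells (38.2%), or 5.50% and 32.6% after thinning. Jun, Btg2 and Dusp1 had log2 folds of 2.86, 3.09 and 2.61. Such genes are known to respond within minutes to neuronal activity and also to tissue dissociation, and the part of either was not tested. AST3, another hippocampal subtype from the same suspensions, had Fos at 638 and 610 CPM, beside 966 and 1662 for AST4 on the same scale, and AST4 against AST3 did not pass for Fos (log2 fold 1.02, adjusted p = 0.117).

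Btg2 and Dusp1 hold the cAMP response element TGACGTCA (capitals), which CREB binds in activity-induced genes, and Fos and Jun showed no such run in the same window.
Btg2: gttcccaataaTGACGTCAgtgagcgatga
Dusp1: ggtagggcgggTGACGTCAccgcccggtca
They lie at chr1:134079303-134079332 and chr17:26508597-26508626, both on the minus strand of GRCm38.p6. This palindrome was in 7.56% of the promoters of genes called higher, in 4.45% of those called lower, and in 1.88% of all promoters. Among the 2341 promoters of genes in the restricted fit the share was 3.67%. Only this exact run was searched, so sites that differ from it were not counted, and a match names no bound site.

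Stem genes were read in AST4 cells with and without Fos. Frzb was read in 22 of the 34 AST4 cells with Fos and in 31 of the 55 without, Emx1 in 16 and 21, and Vim in 20 and 34. Islr was read in 21 of 34 (61.8%) and 23 of 55 (41.8%), and Sfrp1 in 38.2% and 27.3%. Lpar1 went the other way, in 14 of 34 (41.2%) and 27 of 55 (49.1%). Dusp1 was read in 20 of 34 and 12 of 55, and Egr1, an early growth response factor, in 12 and 1. With all Fos-bearing cells left out of both subtypes, which kept 25 and 30 AST4 cells, 8.74% of the genes passed, 2.99% as higher and 5.75% as lower. Dusp1 was then at a log2 fold of -0.87 (adjusted p = 0.441), and Btg2, counted in both the stem and the immediate early list, at 1.76 (adjusted p = 0.0707), so that neither passed.

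The genes with the largest decrease in AST4 were read in many AST1 cells and in few or no AST4 cells. Kcnk1, the potassium channel TWIK1, was at 758 and 740 CPM in AST1, with counts in 395 of 545 cells (72.5%). In AST4 it had 2 counts in 1H and 3 in 2H, spread over 5 cells, and after thinning none was left. Gabrg1, a GABA-A receptor subunit, was at 415 and 333.5 CPM in AST1 and had 0 counts in 89 AST4 cells, while it was read in 51.6% of AST1 cells. With AST4 set to a floor of 3 counts over both sums together, its level was 18850-fold higher in AST1. A single unseen AST4 cell could hold many reads, so this fold is no lower bound. Grin2c, an NMDA receptor subunit of astrocytes, was read in 48.3% of AST1 cells and in 1 AST4 cell.

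Mfsd2a, a transporter of omega-3 lipids and also among the 12 genes with the largest decrease, was at 454 and 451 CPM in AST1 and at 14.1 and 7.16 in AST4 (log2 fold -5.42 ± 0.37, adjusted p = 0.00551). Elovl2, which elongates polyunsaturated fatty acids, was at 324.2 and 388 CPM against 11.3 and 23.2 (log2 fold -4.38, adjusted p = 0.00697). Cd38, an enzyme that consumes NAD, was at 432 and 503 against 23.9 and 16.8 (log2 fold -4.47, adjusted p = 0.00551). Irak2, a kinase of interleukin 1 signalling, Chst1, a sulfotransferase, Tuba4a, a tubulin, and Tmem176a had log2 folds of -6.63, -5.64, -4.97 and -4.59. The long RNAs Gm13322 and Mir124-2hg, the host transcript of a miR-124 gene, completed the 12. Gm13322 had counts in 50.6% of AST1 cells and in 0 AST4 cells, and Mir124-2hg in 32.3% and in 1 AST4 cell. All 12 entered the restricted fit through AST1 alone, and Grin2c, Irak2, Chst1, Tuba4a, Tmem176a and Mir124-2hg were not tested with the mean of both shares.

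Of 17 tested genes for potassium and water transport and junctions, 11 were called lower and 1 higher. Of 12 tested genes for uptake and metabolism of glutamate and GABA, 7 were lower and 1 higher. Over all tested genes 10.1% were lower and 5.95% higher. The other 5 and 4 genes did not pass, and 0 genes of either list passed in the fit on all genes. Of the lower calls 3 of 11 and 1 of 7 entered through AST1 alone, and both higher calls through AST4 alone. With the mean of both shares as filter, 10 of 15 and 7 of 12 genes were lower, and 0 and 1 higher. Over all genes tested with that filter 14.6% were lower and 10.8% higher. That filter did not test 2 calls of the first list. Gjb6, connexin 30, was at 1846 and 1854 CPM in AST1 and at 104.2 and 174.1 in AST4 (log2 fold -3.71 ± 0.24, adjusted p = 0.00521). Aqp4, the water channel of endfeet, was at 2142 and 1955 against 183.1 and 213.6 (log2 fold -3.30 ± 0.16, adjusted p = 0.00362). Gja1, connexin 43, had a log2 fold of -2.73 and was read in 86 of 89 AST4 cells. Slc4a4, a bicarbonate transporter, and Kcnj16, an inward rectifier potassium channel, were lower at -3.43 and -2.998, while Kcnj10, the main such channel of astrocytes, was at 0.25 without a call. Aqp4 and Gjb6 were read together in 472 of 545 AST1 cells and in 14 of 89 AST4 cells.

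Glul, glutamine synthetase, was at 1214 and 1207 CPM in AST1 and at 177.4 and 190 in AST4 (log2 fold -2.65 ± 0.14, adjusted p = 0.00362). Slc1a2, the glutamate transporter GLT-1, fell by 1.32 on the log2 scale (adjusted p = 0.00487), and Slc7a10, a carrier of serine, by 2.47. The GABA transporter Slc6a11 was lower at -1.85, and Maob, a monoamine oxidase, at -2.58. Slc1a3, the transporter GLAST that radial glia share, was at 11523 and 11879 CPM in AST1 and at 12278 and 10380 in AST4, in 100% of the cells of both. Its log2 fold was 0.02 ± 0.09 (adjusted p = 0.884), its sign changed with the fit, and with library totals alone it was called higher at 0.44 (adjusted p = 0.0226). Slc38a1 was the higher member of the glutamate and GABA list. Atp1b2 was lower at -1.74. It encodes the antigen of the sort, and its level was 5720 and 5962 CPM in AST1 and 1796 and 1548 in AST4. It was read in 87 of 89 AST4 cells, and whether the sort gate took part in which cells were recovered was not tested.

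Energy and lipid genes were lower in part. Of 17 tested genes of glycolysis 10 were called lower and 0 higher, beside 10.1% and 5.95% of all genes tested, with a median log2 fold of -0.74. Of the 10, 1 entered through AST1 alone. Pfkp and Pfkm, isoforms of phosphofructokinase, were at -3.24 and -1.94, Ldhb at -1.86 and Gapdh at -1.18, and Slc2a1, the glucose transporter GLUT1, at -2.02. Pkm was at 0.43 and Pfkfb3, an activator of phosphofructokinase, at 2.06, and neither passed. Of 22 tested genes of lipid carriage and sterol synthesis 9 were lower and 0 higher, beside the same shares. Apoe, the main lipid carrier of the brain, was at 48173 and 48489 CPM against 23148 and 22931 (log2 fold -0.996, adjusted p = 0.00362), and Clu, clusterin, at 22607 and 23740 against 7304 and 7203. Of 14 tested genes of fatty acid oxidation a single one, Acsbg1, an acyl-CoA synthetase, was called (log2 fold -0.85).

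Of 23 tested secreted proteins 14 were lower and 3 higher, beside 10.1% and 5.95% of all genes tested. Of the 14, 1 entered through AST1 alone, and of the 3, 1 through AST4 alone. Htra1, a serine protease, Bcan, brevican of the matrix, and Hapln1, its link protein, were at -2.86, -2.83 and -3.36. Agt, angiotensinogen, was at 1044 and 1070 CPM in AST1 and at 297.6 and 268.01 in AST4 (log2 fold -1.83 ± 0.14, adjusted p = 0.00571). Sparc, Tnc and Itih3, all matrix proteins, were higher at 1.64, 1.98 and 0.96, while Sparcl1, a relative of Sparc, was lower at -1.36. Among 17 tested genes of redox defence 6 were lower, again beside 10.1%, with Gstm5 at -1.70 and Mt1 at -1.21. Gsta4 was higher at 1.42 and had entered through AST4 alone. Of the genes that the study named for AST1, Prex2, Plekhb1 and Arl6ip1 had log2 folds of -0.15, -0.75 and -0.01 and did not pass. Of those it named for AST4, Sirt2 and Dab1 were at 0.15 and 0.49 and did not pass either. The study had set each subtype against all other astrocytes, cortical ones included, so these values do not repeat its comparison.

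**Figure D4:**
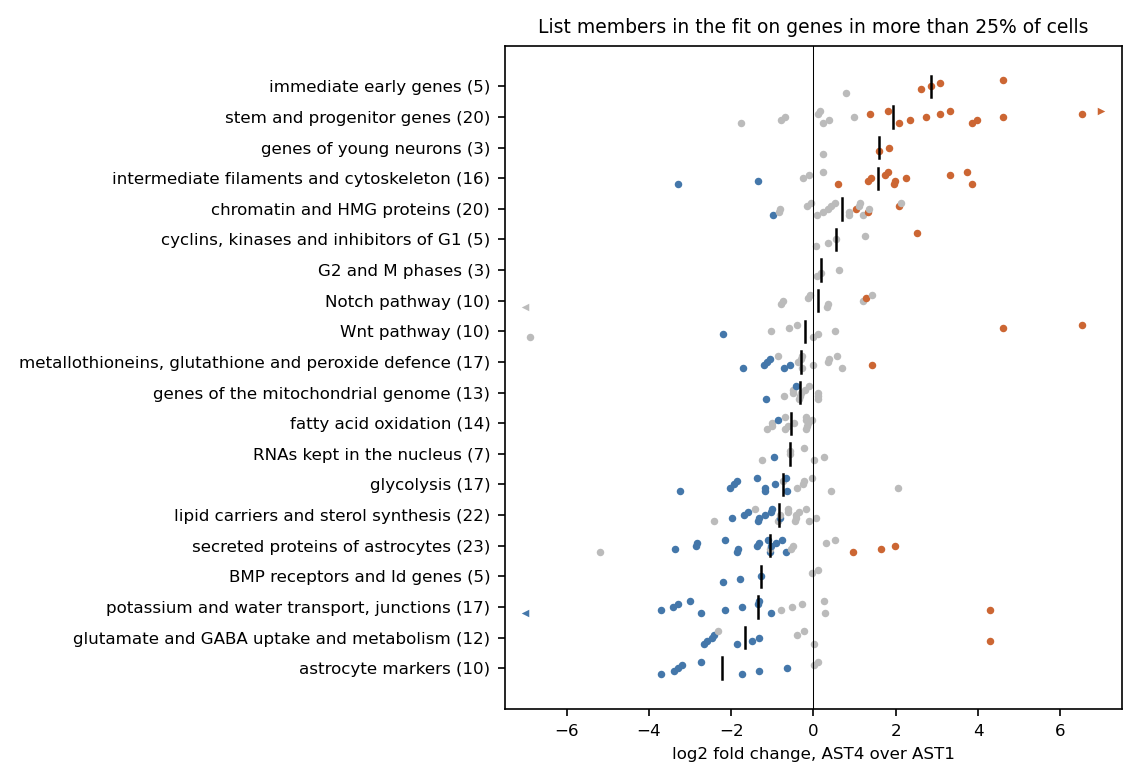
Log2 fold change of AST4 over AST1 for the members of each list in the restricted fit, with the number tested in brackets, called higher (orange), called lower (blue) or not called (grey), and the list median as a bar. Triangles at the edge stand for values beyond the axis, such as Lpar1 and Kcnk1. The medians ran from 2.86 for immediate early genes to -2.23 for astrocyte markers.

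Of 10 astrocyte markers 8 were lower and 0 higher, beside 10.1% of all genes tested being lower. Of the 8, 2 entered through AST1 alone. Sox9, a glial transcription factor, was at 470 and 476 CPM in AST1 and 483 and 481 in AST4 (log2 fold 0.10, adjusted p = 0.644), and counted with Slc1a3 among the 2 that were not called. The median AST4 cell held counts for 7 of the 10 markers (range 4 to 10) and the median AST1 cell for 9 (range 6 to 10). Slc1a3 was read in every AST4 cell and Sox9 in 88 of 89, whereas S100b, a calcium-binding protein, was read in 7 and Aldh1l1, a folate enzyme, in 13.

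Markers of other brain cells were checked as whole lists. Among AST4 cells, 0 held 3 or more neuronal, oligodendrocyte, oligodendrocyte precursor or endothelial markers, and 1 each held 3 or more mural, microglial or ependymal markers. The 8 oligodendrocyte precursor markers summed to 205.4 and 240.2 CPM in AST1 and 77.7 and 120.9 in AST4, with Olig2 at 0 counts in AST4. Neuronal markers summed to 12.1 and 9.93 CPM in AST1 and to 61.9 and 22.4 in AST4, and oligodendrocyte markers to 85.4 and 69 against 26.5 and 25.7. Microglial markers summed to 100.01 and 157.5 CPM against 69.2 and 98.01, and endothelial markers to 0.715 and 4.10 against 0.0142 and 0.427. Mural markers summed to 157.2 and 152.3 CPM in AST1 and to 233.4 and 531.8 in AST4. Myl9, a myosin light chain, was read in 32 AST1 and 44 AST4 cells (log2 fold 3.15, adjusted p = 0.0121), and had entered through AST4 alone. Pdgfrb, a defining marker of pericytes, was at 136.99 and 122.75 CPM against 18.0 and 53.02 and was not called (log2 fold -1.996, adjusted p = 0.0807). The 7 ependymal markers had 1.64 and 0.515 CPM in AST1, 0 counts in AST4 of 1H and 113.2 CPM in AST4 of 2H, where the cell with 3 or more of them lay. The part of these cells in the results was not tested.

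The AST4 cells also differed in measures taken before any gene was named. The median AST4 cell had 2396 detected genes in 1H and 2592.5 in 2H, against 1969 and 2003.5 in AST1. The difference, 508 ± 115 genes (SD, n = 2 suspensions, exact two-sided sign-flip p = 0.5, the lowest possible), was positive on 16 of 16 plates. Total counts had medians of 1405690 per AST4 cell and 1425276 per AST1 cell, and AST4 cells had the higher median on 14 of 16 plates. With every cell thinned to 50000 counts the difference in detected genes was 425 ± 39.6, positive on 15 plates. Gene counts per count of the added ERCC spike-in RNA, a measure of the RNA in a cell, were 1.28-fold higher in 1H and 1.39-fold in 2H (mean log2 difference 0.41 ± 0.08, n = 2), and higher on 15 of 16 plates. The share of reads outside annotated exons was lower by 2.20 and 1.30 percentage points, at medians of 11.02% and 11.65% against 13.22% and 12.95%, and lower on 13 plates.

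**Figure D5:**
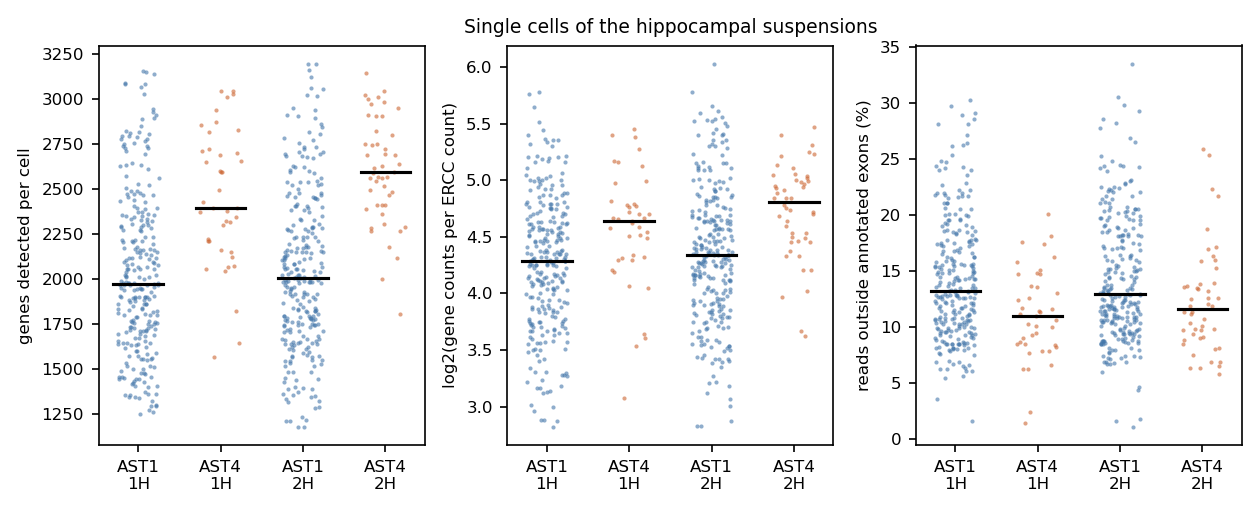
Genes detected per cell, log2 of gene counts per ERCC count, and percent of reads outside annotated exons (y axes) for single AST1 (blue) and AST4 (orange) cells of 1H and 2H, with the median as a bar. The AST4 median lay above the AST1 median in the first 2 panels and below it in the third, in both suspensions, and the cells overlapped widely.

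These measures moved with the gene groups above, and their part in the results was not tested. CPM values are shares of a sum, in which more RNA per cell does not show. Of 13 mitochondrially encoded genes 2 were called lower (mt-Nd2 at -1.15 and mt-Co1 at -0.42), a share near the 10.1% of all genes tested, and Malat1, a nuclear RNA, was lower at -0.95 (adjusted p = 0.00566), the single call among 7 tested nuclear RNAs. Pseudogenes made up 57 of the higher and 28 of the lower calls. Their share among all genes tested is not given here, so these counts do not show an excess in either direction. Since their reads can belong to the parent genes they are not named.

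AST3 is a further reference within the same suspensions, though its contrast shares the AST4 sums with that of AST1. The filter on cells looked at AST1 and AST4 alone, and Frzb, Sfrp1 and Tmem132b had entered through AST4 alone. They were picked for their high values in AST4, so their adjusted p-values against AST3 are no independent support. On the scale of the joint fit Frzb was at 33.2 and 7.02 CPM in AST3 and was higher in AST4 (adjusted p = 0.034), as were Sfrp1 and Tmem132b, both with 0 CPM in AST3 (adjusted p = 0.0172 and 0.0175). Vim was at 32.1 and 34.04 in AST3 and at 443 and 457 in AST4 (log2 fold 3.77, adjusted p = 0.0148). Kcnk1, at 634 and 696 CPM, and Gabrg1, at 584 and 848, were present in AST3 as in AST1. The joint fit drew its spread from all hippocampal subtypes.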

How the data were processed

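Single cells were profiled with a modified Smart-seq2 protocol, and the deposited values are raw counts of reads per gene, which the authors made by mapping with STAR 2.5.2b to GRCm38.p5 with Gencode annotation and ERCC sequences, and counting with HTSeq. Whether counting used strand is not given in the sources used here. Subtypes per cell came from the study's supplementary list, itself clustered from these counts. Cells were sorted singly and no doublet caller was run. Totals ran from 600758 to 3021112 counts per hippocampal cell of the comparison. PCR reads carry no molecular identifiers, so intervals and floors cover counting error only. No 2 cells had equal counts.

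Raw counts were summed per subtype and suspension and tested with edgeR 4.0.16 (TMM factors, quasi-likelihood F-test with the suspension as a block, Benjamini-Hochberg adjustment). Pairs were formed by suspension because both subtypes of a pair come from the same animals and tube. The implied SE is the fold divided by the root of F. As 0 genes passed, a fit restricted to genes read in over 25% of AST1 or of AST4 cells is described in its place, a choice made after the result was seen. Its filter uses the subtypes, and a filter on the mean of both shares called 690 of 2718 genes. Named genes were the 12 of largest fold in each direction, called, read in over 25% of cells of the higher subtype in both suspensions, and of the same sign in both suspensions, the genes the study named, and up to 4 called members per list (otherwise the 2 most abundant). The remaining named genes, including the 5 stem and 7 mitotic genes counted per cell, were chosen after values were seen. Some genes that these rules name are not reported here. Members and lists were chosen with earlier results of these data known. Of 49671 gene identifiers 49326 matched a symbol of Gencode M21 on GRCm38, which also gave positions. DESeq2 1.42.0, other scalings, thinning to 50000 counts, left-out suspensions and left-out cells were tried. The edgeR steps were also run on simulated counts. Their spread was set below that of the fit on all genes, so that fit was not tested at its own spread. RefSeq promoters of GRCm38.p6 were matched by symbol.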

Additional observations from a re-analysis of the deposited data

How the results depend on the processing

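In the fit on all genes the share of genes called, 0 (0%), became 16.03% (552) with the 25% filter on cells, 0.553% (89) with no replicate block, 0.4416% (72) with the spread shared by all hippocampal subtype sums, 2.148% with cells thinned to 50000 counts and 11.85% (1907) with DESeq2. It was 0 with RLE or upper-quartile factors, with no low-count filter and at 1.5-fold. In the restricted fit the 16.03% became 25.68% with library totals alone, 24.4% with no replicate block, 5.141% with the shared spread, 28.99% after thinning, 29.77% with DESeq2, 8.742% without the cells holding Fos, and 1.307% to 1.365% without either suspension, where the lone sums were assumed to vary like the others. Direction was kept by 548 to 552 of those calls in the fits that tested all 552. The pairs of the replicate block are the shared suspensions, and 540 of the 552 calls were also made with no replicate block. The differences in detected genes, counts per ERCC count and reads outside exons kept their sign within plates and without either suspension, while total counts per cell differed by -67327 in 1H, 28045 in 2H and 145070 within plates.

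Of 95 named genes, 83 kept their direction in every fit. Among called genes, mt-Co1 was at 0.0027 with library totals alone and Dusp1 at -0.87 without cells holding Fos. Arl6ip1 was at 0.037 with the shared spread, 0.14 without 1H and -0.18 without 2H, and, in the restricted fit, 0.050 with the mean of shares, 0.12 with upper-quartile factors, 0.41 with library totals, 0.0033 with the shared spread, 0.15 without 1H and 0.12 without Fos cells. Slc1a3 was at -0.051 on all genes, -0.028 with upper-quartile factors, -0.092 with no filter, -0.047 with no replicate block, -0.019 thinned, and -0.12 and -0.12 without 1H, and was called at 0.44 with library totals in the restricted fit. Prex2 was at 0.16 and 0.14 without 2H, -0.47 without 1H and 0.28 with library totals. Sirt2 was at -0.017 and -0.043 without 2H, and 0.31 without 1H, and Ckap5 at -0.16 and -0.16 without 1H and 0.50 without 2H. The markers Foxj1, Rsph1 and Snap25 were at 2.32, 3.62 and 2.52 with no block and at 1.22, 2.00 and 2.16 with the shared spread. Foxj1 and Rsph1 were at 5.04 and 5.26 without 1H and -10.35 and -9.70 without 2H, Snap25 at 0.18 thinned, -11.17 without 1H and 3.14 without 2H, Mbp at -1.16 and 0.24 without 1H and 2H, and Celf4 at -0.50 and 5.35. The causes were not tested. Genes read in at most 25% of the cells of both subtypes were tested only in the fits on all genes.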
